A study of Mus musculus with 2 samples.

Results

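The genes described here are 37 parts of the machinery that copies DNA, chosen by name and grouped by what their products do. They are the origin licensing genes Orc1, Cdc6, Cdt1, Mcm2, Mcm3, Mcm4, Mcm5, Mcm6 and Mcm7, the helicase activation genes Cdc45, Gins1, Gins2 and Mcm10, and the polymerase alpha and primase genes Pola1 and Prim1. The clamp and its loader are Pcna, Rfc2, Rfc3, Rfc4 and Rfc5, Okazaki fragments are joined by Fen1 and Lig1, and nucleotides are supplied by Rrm1, Rrm2, Tyms and Dut. Tipin and Esco2 serve fork protection and cohesion, Chaf1a, Chaf1b and Slbp serve chromatin assembly and histone mRNA, Ung removes uracil, and Ccne1, Ccne2, E2f1, E2f7 and E2f8 control entry into S phase. All 37 were present in both libraries, among 26549 gene symbols common to them.

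The data are single-cell RNA counts from mouse ovary, captured on the BD Rhapsody system, in which each cell is paired with a barcoded bead and each captured mRNA molecule is counted once by its unique molecular identifier (UMI). The control library came from female ICR mice given ddH2O by gavage every day for 35 days. The PS-MP library came from female ICR mice given 1 mg of polystyrene microplastic particles of 0.1 µm in 100 µL on the same days, and both were taken at 8 weeks of age, 24 h after the last gavage. The labels state 16 mice and do not say how they divide between the groups. The labels tie no cell to a mouse, and each group is therefore 1 library: no difference between the libraries could be tested, and every interval below is a 95% interval for counting error only, which says nothing about variation between mice. After filtering, 14538 control cells and 14412 PS-MP cells remained, with a median of 9502.5 and 8643 UMIs per cell, and the libraries shared 3 cell barcodes.

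In a dividing cell the origin recognition complex, with Cdc6 and Cdt1, loads rings of Mcm proteins onto DNA in G1 phase. In S phase Cdc45 and the GINS complex turn each ring into a moving helicase, DNA polymerase alpha with primase lays down primers, and the Pcna clamp, opened and closed by the Rfc loader, holds the copying polymerases on the strand. Many of these genes are switched on together at the G1/S boundary by E2F transcription factors, and E2f7 and E2f8 later repress E2F targets. In the ovary, granulosa cells divide rapidly while the follicle grows around the oocyte, and they stop dividing when they turn into luteal cells after ovulation. Oocytes in the adult ovary are held in meiosis and do not copy their DNA.

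Shared E2F motifs were visible in the promoters of the licensing genes. Promoter sequence from RefSeq on GRCm38.p6 (250 bases before to 50 after the annotated start) was matched by symbol for 30 of the 37 genes. The letters TTTCCCGC, TTTCGCGC, TTTGCCGC and TTTGGCGC, written here as the E2F motif, were searched on both strands, and matches could overlap. They occurred in 11 of 30 members (36.7%), against 2.61% of 27025 genes with a promoter in the table and 5.31% of the 9588 genes whose promoters held as many CpG pairs as the lower quartile of the members. Among the origin licensing genes 7 of 8 with a promoter entry held it, Mcm2 being the one without. Neither the 4 nucleotide supply genes nor the 3 chromatin assembly and histone mRNA genes held it. The CHR letters TTTGAA and TTCGAA, linked to genes expressed late in the cycle, occurred in 20% of members and in 74.4% of the 43 mitosis genes with a promoter. The share was 21.7% of all genes and 10.4% of the 9588 genes at the CpG limit above. A match is a description of the letters and not evidence that a factor binds there. The 6 upstream stretches that follow show the motif of the licensing genes and of E2f7, 5′ to 3′ on the gene's own strand, with the upstream E2F match nearest to the start in capitals. In Mcm5 a pair of matches on opposite strands overlap and are both in capitals.
Cdc6, chr11:98907987-98908046, plus strand: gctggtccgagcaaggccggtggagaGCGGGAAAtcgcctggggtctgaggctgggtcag
Mcm5, chr8:75109334-75109393, plus strand: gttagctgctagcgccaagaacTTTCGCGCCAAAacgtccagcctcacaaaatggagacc
Mcm6, chr1:128359719-128359778, minus strand: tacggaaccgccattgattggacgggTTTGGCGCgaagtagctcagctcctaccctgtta
Mcm7, chr5:138172015-138172074, minus strand: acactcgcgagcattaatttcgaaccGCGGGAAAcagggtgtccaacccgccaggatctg
Orc1, chr4:108579401-108579453, plus strand: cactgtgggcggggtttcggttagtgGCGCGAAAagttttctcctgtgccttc
E2f7, chr10:110745215-110745274, plus strand: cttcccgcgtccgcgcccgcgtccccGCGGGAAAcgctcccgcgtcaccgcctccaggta
The capitals lay close to the start in Orc1 (19 bases) and Mcm6 (39 bases), and farther upstream in Cdc6 (130), Mcm5 (141), Mcm7 (157) and E2f7 (190).

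To compare cells of different depth, each cell was thinned at random to 3500 UMIs and its UMIs from the 37 genes were added up. A sum of at least 10 is called a high replication score. It marks a range of a continuous score and not a cell type: 1296 control granulosa-like cells (12.7%) and 1420 PS-MP granulosa-like cells (15.6%) lay within 2 UMIs of the limit. Cell groups came from clustering in which the 37 genes and the other replication, mitosis and G1 lists took no part, and were named from marker genes. Of 18 clusters 6 were granulosa-like. They are told apart by number, with their leading genes: cluster 0 (Inhba, Cyp19a1), cluster 1 (Slc38a5, Slc38a3), cluster 3 (Ntng1, Col11a1), cluster 4 (Amh, Ihh), cluster 5 (H19, Galnt15) and cluster 8 (Pcsk6, Car4). Clusters 1, 3, 5 and 8 had no granulosa marker among their 10 leading genes, so the libraries are compared cluster by cluster, and the pooled share with a high score is given with and without cluster 1, the largest of these.

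Granulosa-like cells held most of the high scores. In the control library they were 70.3% of all cells and 86.7% of the cells with a high score, and in the PS-MP library 63.2% and 89.0%. Their share with a high score was 27.1% (26.3 to 28.0, 10227 cells) in the control and 32.4% (31.4 to 33.3, 9111 cells) in PS-MP. The Edn2-led cluster, named luteal-like by its marker score and made of 1898 PS-MP cells but only 6 control cells, gives the lower end of the scale, with 1.00% (0.604 to 1.56) at a median depth of 9659 UMIs. The other luteal-like cluster, led by Akr1c18, had 2.07% of 242 control cells and 2.19% of 137 PS-MP cells. Luteal cells largely leave the cell cycle, and these shares are given as a low reference for the rest. The Edn2-led cluster had 0 luteal markers among its 10 leading genes and the Akr1c18-led cluster 2, so the name of the former rests on its marker score alone.

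**Figure D1:**
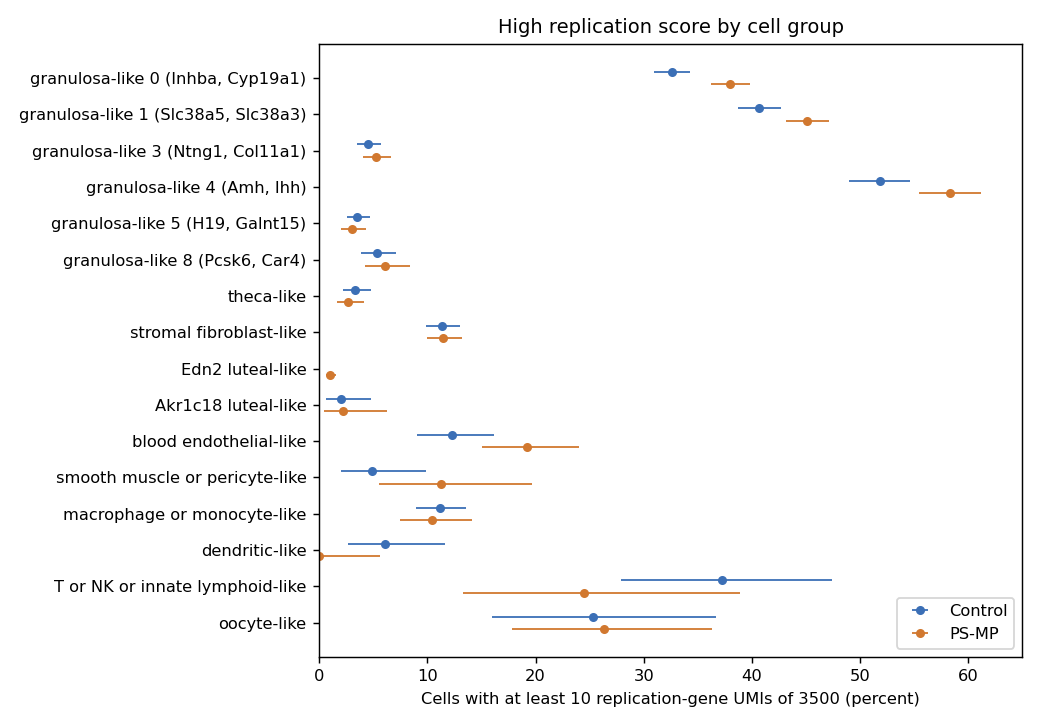
Share of cells (percent, x axis) with at least 10 UMIs from the 37 genes among 3500, for each granulosa-like cluster and other cell group (y axis). Points are the single control and PS-MP libraries, bars are 95% counting intervals, and groups under 20 cells in a library are not drawn; clusters 0, 1 and 4 stand at 32.6% or more and clusters 3, 5 and 8 at 6.09% or less.

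Granulosa-like clusters formed a high and a low set in both libraries. Cluster 4, led by Amh, the hormone made by granulosa cells of growing follicles, had the highest share at 51.8% of 1241 control cells and 58.3% of 1135 PS-MP cells. Cluster 1 had 40.7% and 45.1%, and cluster 0, led by Inhba and the oestrogen-making enzyme Cyp19a1, had 32.6% and 38.0%. Clusters 3, 5 and 8 had 4.53% and 5.22%, 3.5% and 3.02%, and 5.31% and 6.09%, not far from theca-like cells at 3.31% (2.18 to 4.82) and 2.70% (1.66 to 4.14). Since clusters are themselves drawn from expression, this order is a description. Cells with a high score also carried more RNA before thinning: the median granulosa-like cell with a high score had 13240 UMIs in the control, against 8962 in the others, and 11387 against 7991 in PS-MP.

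The high and low sets were named from the summed score of these genes, so a split gene by gene is in part built in. No share over all genes stands beside the counts that follow, and they are a description. In each library all 37 genes were higher in each of clusters 0, 1 and 4 than in any of clusters 3, 5 and 8, in UMIs of the gene per 1000000 UMIs of the cell group (CPM). That scale is not divided by transcript length and so compares groups and not genes. In the control, 30 of 37 were highest in cluster 4 and 7 in cluster 0, and in PS-MP 31 were highest in cluster 4, 4 in cluster 0 and 2 in cluster 1. Mcm5, a subunit of the helicase ring, had 192 CPM in cluster 4 and 30.02 CPM in cluster 5 of the control, and 216 and 34.1 CPM in those of PS-MP. Cdc6 had 31.1 and 2.41 CPM in the same control clusters and 36.9 and 3.69 CPM in PS-MP. The 7 that peaked in cluster 0 of the control were E2f7, E2f8, Rrm2, Esco2, Slbp, Ccne1 and Ccne2. There E2f7 was 43.2 CPM against 28.5 CPM in cluster 4, Rrm2 105 against 89.5 CPM, and Slbp, which binds histone mRNA, 86.3 against 72.2 CPM. In PS-MP, E2f7 was nearly level, with 33.1, 33.8 and 32.8 CPM in clusters 0, 1 and 4.

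A second score, from 50 genes of mitosis such as Top2a and Ccnb1, used the same limit of 10 UMIs of 3500. In the control 28.3% of granulosa-like cells passed it, and in PS-MP 34.1%. Crossing the scores gives 4 states. In the control, 10.9% of granulosa-like cells were high for replication only, 16.2% for both, 12.1% for mitosis only and 60.8% for neither, and in PS-MP the shares were 12.5%, 19.9%, 14.2% and 53.4%. Cluster 8 stood apart in its balance. It had 1.61 replication-only cells for each mitosis-high cell in the control and 1.04 in PS-MP, from 23 and 25 mitosis-high cells, against 0.518 and 0.5 in cluster 4 and less in clusters 0, 1, 3 and 5.

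**Figure D2:**
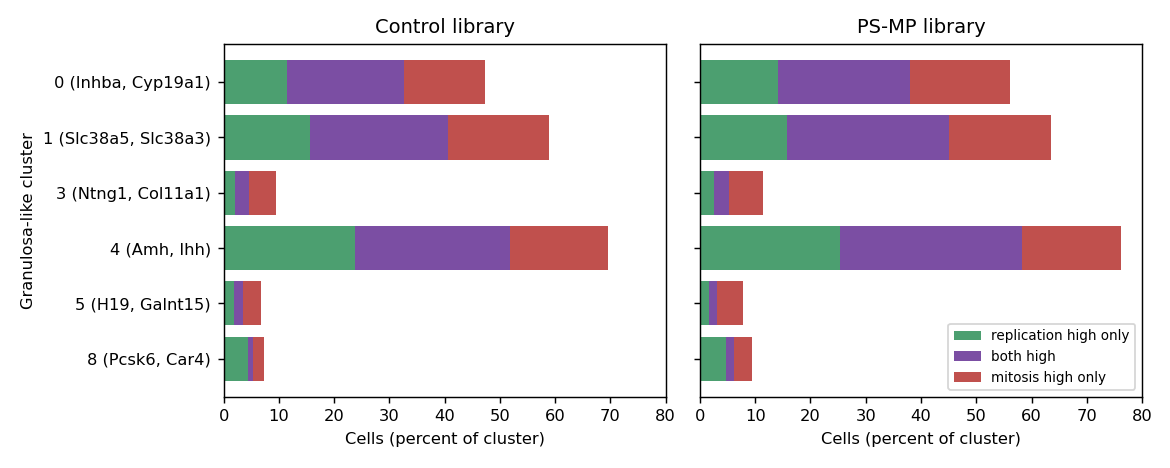
Percent of cells (x axis) that were high for the replication score only, for both scores or for the mitosis score only, stacked, by granulosa-like cluster (y axis), with a panel per library. In cluster 8 the replication-only section makes up most of the high scores, at 4.46% and 4.80% of cells.

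The 37 genes were not spread alike over these states. The ratio of a gene's CPM in replication-only cells to that in both-high cells shows this: members above 1 were relatively higher in cells with few mitosis transcripts. In the control 12 of 37 were above 1 and in PS-MP 11. Ung, which cuts uracil out of new DNA, had the highest value, at 171 CPM in replication-only control cells and 90.4 CPM in both-high cells, a ratio of 1.89, and 2.08 in PS-MP. Origin licensing genes came next: Mcm2 had a ratio of 1.29 in the control and 1.27 in PS-MP, Mcm4 1.2 and 1.21, and Cdc6 1.19 and 1.23. E2f1, an activator of S-phase genes, was also above 1, at 1.15 and 1.12.

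At the other end stood Esco2, which acetylates cohesin during S phase, with 13.4 CPM in replication-only and 88.0 CPM in both-high control cells, a ratio of 0.153, and 0.201 in PS-MP. The repressors E2f8 and E2f7 had ratios of 0.190 and 0.301 in the control and 0.236 and 0.309 in PS-MP. Both subunits of ribonucleotide reductase were below 1: Rrm2, the regulated small subunit, had 0.408 and 0.442, and Rrm1, the large subunit, 0.534 and 0.551. Pcna, the single most counted member with 16.3% of member UMIs in control and 17.4% in PS-MP granulosa-like cells, stood at 664 CPM in replication-only and 961 CPM in both-high control cells. Because Pcna and Tyms have processed pseudogene copies, and the sources used here do not say how reads were assigned among copies, their levels are less certain than the others. For each gene the replication score used in these paragraphs was the sum of the other 36 members, cut at the same 10 UMIs. The members rise and fall together, so these values are a description and no test.

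**Figure D3:**
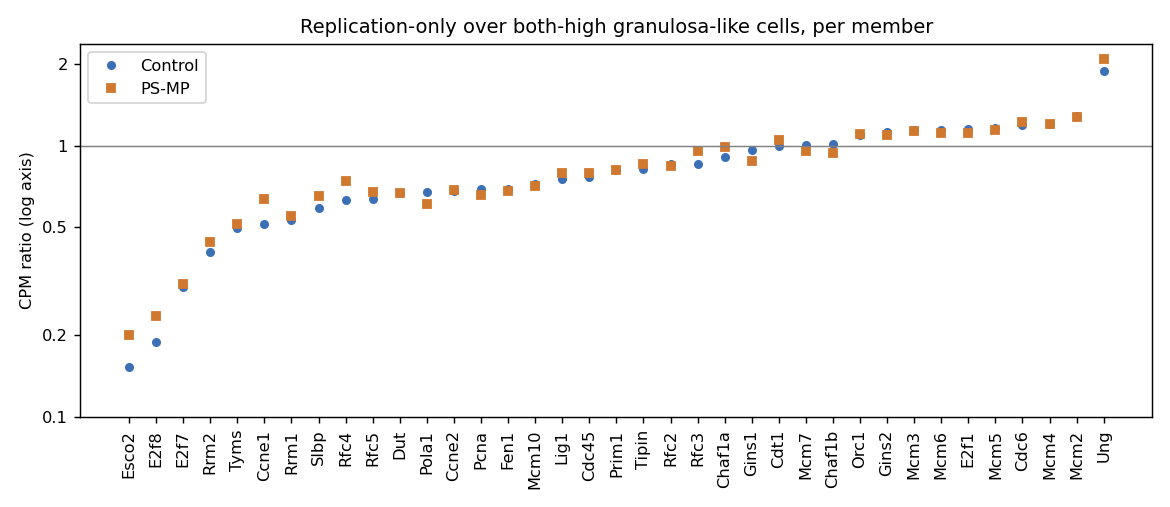
Ratio of CPM in replication-only to CPM in both-high granulosa-like cells (log y axis) for each of the 37 genes (x axis, ordered by the control value), as 1 point per library. Esco2, E2f8 and E2f7 lie lowest and Ung highest in both libraries.

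The genes were also set against the mitosis score alone, which holds no member. The states above use the same mitosis limit, so a similar order is in part built in and is no separate check. The order was not identical: in the control Slbp had a low ratio of 0.592 there, but only 1.91 times the level in mitosis-high cells here. Mitosis-high granulosa-like cells had a median of 2.63 times the level of mitosis-low cells over the 37 genes in the control and 2.31 times in PS-MP. Esco2 had the highest ratio, at 67.3 and 3.65 CPM in the control, which is 18.4 times (16.2 to 21.1), and 12.7 times in PS-MP. Ung had the lowest, at 61.7 and 60.9 CPM, a ratio of 1.01 (0.965 to 1.07), and 0.870 (0.827 to 0.915) in PS-MP, where mitosis-high cells held less of it. When cells were split instead by the other 36 members, every gene was at least 2.30 times higher in the control cells with a high sum, with a median of 4.15. Slbp had that lowest value and Cdc6 the highest, at 12.7 (11.1 to 14.6).

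Per cell, the members varied together. The correlation of 1 member with the sum of the others over granulosa-like cells had a median of 0.478 in 10227 control cells and 0.457 in 9111 PS-MP cells, with a range of 0.230 to 0.707 and 0.199 to 0.695; cells of a library share its capture and depth, so these are descriptions. Of 13192 other genes ranked by their correlation with the score, 26 were in the top 30 of both libraries. Pclaf, a Pcna-binding protein, was first at 0.706 and 0.692. Uhrf1, which reads methylated DNA at forks, stood at 0.672 and 0.623, the tubulin gene Tuba1b at 0.639 and 0.623, and the topoisomerase Top2a, a mitosis gene of the second score, at 0.624 and 0.591. The helicase gene Hells (0.616 and 0.552), the histone variant H2az1 (0.603 and 0.605), the licensing inhibitor Gmnn (0.572 and 0.526) and the maintenance methyltransferase Dnmt1 (0.562 and 0.513) were also in this group.

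Next, PS-MP was set against control within granulosa-like cells. The share with a high score was 5.23 percentage points higher in PS-MP over all granulosa-like cells, and 27.7% against 23.1% without cluster 1. It was higher in cluster 0 by 5.43 points, in cluster 1 by 4.44 and in cluster 4 by 6.51, with counting intervals that did not overlap. In clusters 3, 5 and 8 the differences were 0.69, -0.48 and 0.78 points and the intervals overlapped. A cluster can hold a different mix of cells in each library. At the finer resolution of 0.8, granulosa-like clusters with Inhba or Inhbb among their leading genes divided unevenly between control and PS-MP. They held 548 and 2216, 1385 and 537, and 1276 and 361 cells. The part of such a mix in the differences was not tested. The mitosis-high share was higher in PS-MP in all 6 clusters, by 1.36 to 6.30 points. It differed least in clusters 3, 5 and 8, by 1.44, 1.36 and 1.84 points, in cluster 8 from the few mitosis-high cells given above. The direction of the replication difference depended on which cells were called granulosa-like. With the Edn2-led cluster counted among them, the PS-MP share became 27.0% and the difference -0.16 points. Over all cells of each library the share was 22.0% and 23.0%, while member UMIs were 2.10 and 2.05 per 1000, so no order is read for the ovary as a whole.

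By gene, the difference within granulosa-like cells was small and broad. A gene was called when the libraries differed at least 1.2-fold and 1 of them reached 20 CPM, which 31 members did. Only Cdt1, which loads the Mcm ring, was called, at 36.3 CPM in the control and 44.1 CPM in PS-MP, a ratio of 1.22 (1.16 to 1.27). Over all genes 1.33% of 7350 were called higher and 4.33% lower, so 1 of 31 is near the background. The counting interval of the ratio lay above 1 for 23 of the 31 members and below 1 for 3, where 26.3% of all genes had it above and 37% below. Over all 37 members the median ratio was 1.08. Over the 31 members the median log2 ratio was 0.10, over the 48 mitosis genes that reached 20 CPM it was 0.07, and over all genes tested it was -0.02.

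Cluster by cluster the calls were few as well. In cluster 0, 3 of 34 members were called higher (Ung, Mcm5 and Cdt1) and 1 lower (E2f7), where 5.57% of genes were called higher and 10.2% lower. In clusters 1 and 4, 0 of 34 were called in either direction, where the background was 2.51% and 4.43% in cluster 1 and 5.27% and 6.74% in cluster 4. Ung, with 53.1 and 69.1 CPM in cluster 0, had the highest ratio among these calls at 1.3 (1.22 to 1.39).

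In the low clusters fewer members reached 20 CPM. Cluster 3 had 2 of 16 higher (Mcm2 and Rfc3) and 1 lower (Prim1), against 5.13% and 8.11% of genes. Cluster 5 had 1 of 14 higher (Mcm3) and 2 lower (Mcm7 and Lig1), against 5.53% and 7.76%. Cluster 8 had 1 of 16 higher (Mcm5) and 2 lower (Mcm7 and Slbp), against 7.56% and 7.72%. Mcm7 was thus called lower in clusters 5 and 8, at 37.2 and 26.98 CPM and at 35.97 and 24.2 CPM, while in cluster 0 it was 76.9 and 86.3 CPM.

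Among the origin licensing genes of granulosa-like cells, Cdc6 was 17.4 and 20.8 CPM (ratio 1.2, 1.12 to 1.28), Mcm4 107 and 128 CPM (1.2, 1.17 to 1.23) and Mcm5 115 and 136 CPM (1.18, 1.15 to 1.21). Before rounding the ratios of Cdc6 and Mcm4 were just under the 1.2-fold limit, so neither was called. Mcm6 was 167 and 189 CPM, Mcm3 92.7 and 103 CPM, Mcm2 61.9 and 67.3 CPM and Mcm7 74.9 and 78.2 CPM, the last with a ratio of 1.04. All 9 genes of this role, of which 8 reached 20 CPM, were higher in PS-MP with an interval above 1. Of the 7350 genes that reached 20 CPM, 26.3% had it above 1. Outside licensing, Pcna was 389 and 459 CPM (1.18, 1.17 to 1.2), Ung 61.2 and 71.9 CPM (1.18, 1.14 to 1.22) and the flap nuclease Fen1 45.2 and 52.2 CPM (1.15, 1.11 to 1.2). The 5 members with a higher level in PS-MP in each of the 6 clusters were Cdc6, Cdt1, Mcm4, Mcm6 and Pcna, and 0 were lower in each. This goes by direction alone: in cluster 8 only 3 of the 37 members had an interval above 1. No share over all genes stands beside this count, and nothing is read from it.

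The helicase activators Cdc45 and Gins2 stood at 14.4 and 16.7 CPM and at 18.2 and 20.1 CPM. Nucleotide supply genes differed less, with Rrm1 at 113 and 117 CPM and Dut, which clears dUTP, at 89.2 and 95.1 CPM. Members with an interval below 1 were Pola1, the catalytic subunit of polymerase alpha (46.9 and 44.8 CPM), the clamp loader subunit Rfc4 (32.3 and 30.6 CPM), Slbp (67.4 and 64.4 CPM) and cyclin E1, Ccne1 (8.14 and 6.69 CPM). Ccne1 had the lowest ratio of the 37, at 0.821 (0.739 to 0.912), from 895 and 591 UMIs. Members of 1 role did not all differ alike: the loader subunit Rfc2 had 114 and 131 CPM where Rfc4 was lower.

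PS-MP was also set against control within cells of the same state, here with the score of all 37 members. Over the 37 members the median ratio of PS-MP to control was 0.981 in replication-only cells and 0.960 in both-high cells. It was 1.04 in mitosis-only cells and 1.08 in cells high for neither. In both-high cells 36 members reached 20 CPM, and the interval lay below 1 for 18 of them and above 1 for 4, where 25.2% of 7277 genes had it below and 14.5% above. Since the states are cut on the members' own sum, equal sums are in part built in, and nothing is read from that count. Mitosis-high cells are cut without the members, and there the median ratio over the 37 members was 0.978. Ccne1 in both-high cells stood at 22.5 CPM in 1660 control cells and 15.6 CPM in 1810 PS-MP cells, a ratio of 0.693 (0.604 to 0.794). Rfc4 in the same cells stood at 71.2 and 57.5 CPM (0.808, 0.751 to 0.869), and Mcm4 at 201 and 216 CPM (1.08, 1.04 to 1.12).

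Endothelial-like cells, which line blood vessels, also had the higher share in PS-MP. It was 12.3% (9.04 to 16.2) of 350 control cells and 19.2% (15.0 to 24.0) of 312 PS-MP cells, and these intervals overlap. Median depth was 6932 and 5967 UMIs. Of the 27 members that reached 20 CPM in a library, 19 were called higher and 0 lower, where 12.8% of 7303 genes were called higher and 18.1% lower. Among the 24 with 20 CPM in both libraries 16 were higher. The counting interval lay above 1 for 17 of the 27 and below 1 for 0, where 8.79% of genes had it above and 11.5% below. A high score was found in 43 control and 60 PS-MP cells, and members counted in the same cells are not independent of each other. Over all 37 members the median ratio was 1.32.

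In these cells all 8 licensing genes that reached 20 CPM were called higher, from Mcm7 at 35.4 and 50.4 CPM to Cdc6 at 11.5 and 25.2 CPM (2.20, 1.41 to 3.47, from 34 and 56 UMIs). Mcm5 was 59.4 and 107 CPM (1.80, 1.47 to 2.19), Mcm6 75.6 and 120 CPM, Tyms, which makes thymidylate, 37.5 and 62.5 CPM, and the histone chaperone subunit Chaf1a 22.3 and 39.1 CPM. Ung (31.7 and 29.7 CPM), E2f1 (26.3 and 22.9 CPM) and Slbp (55.7 and 58.4 CPM) were not called. Among the other replication genes 12 of 29 were called higher and 3 lower, and among the mitosis genes 29 of 43 higher and 1 lower. With 20 CPM in both libraries, 11 of 26 other replication genes were higher and 1 lower, and 23 of 35 mitosis genes higher and 1 lower. Of the G1 regulators 2 of 23 were higher and 5 lower, near the background of 12.8% and 18.1% of genes. Their median log2 ratio was 0.05. The highest and lowest ratios of that list belonged to cyclin D1, Ccnd1, which drives G1 exit, and the inhibitor Cdkn1c. Ccnd1 was 154 and 305 CPM and Cdkn1c 68.5 and 33.3 CPM. Granulosa markers stood at a median of 14.1% and 13.5% of their granulosa-like level in these cells, and their part in the difference was not tested.

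**Figure D4:**
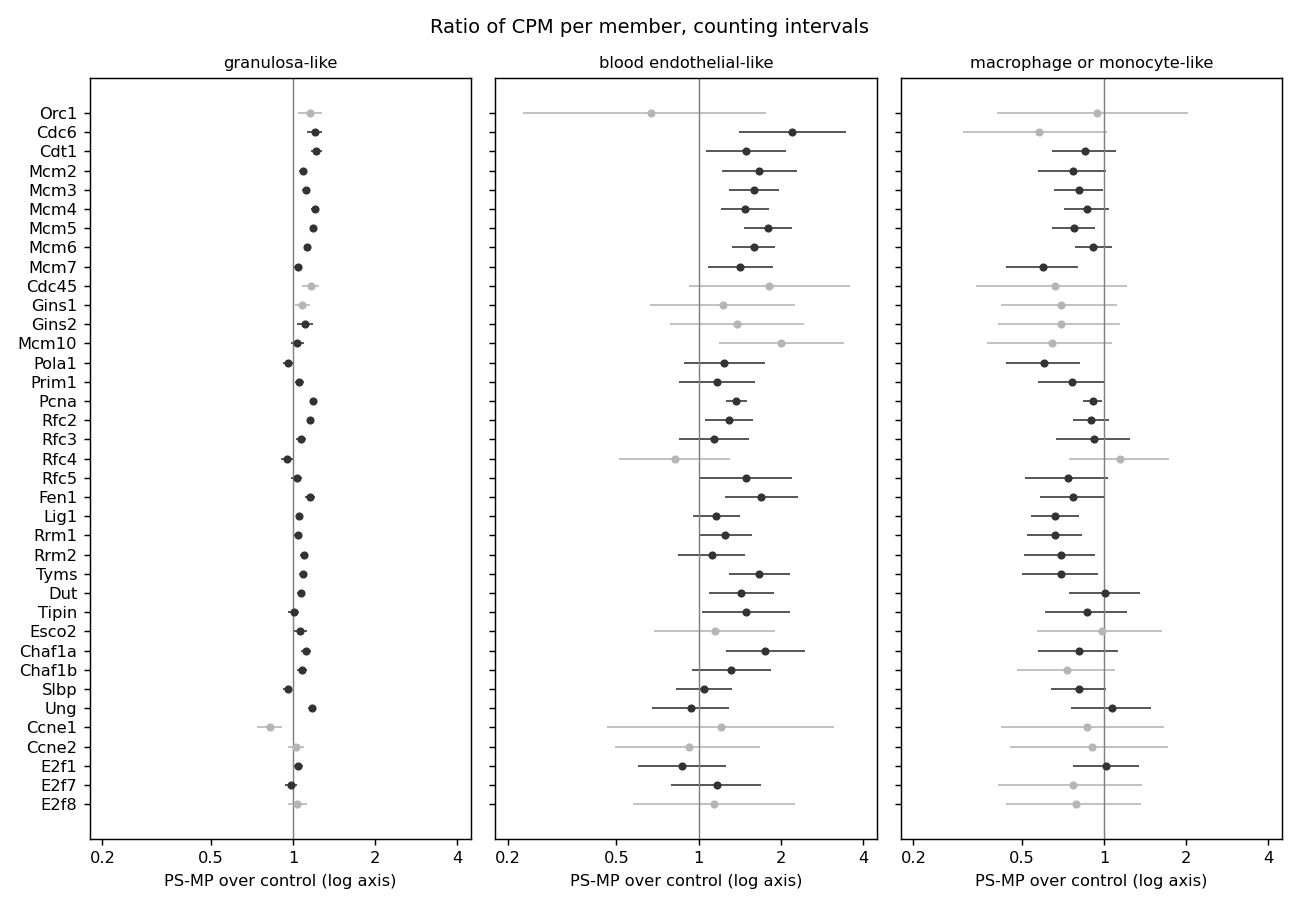
Ratio of PS-MP to control CPM (log x axis) for each of the 37 genes (y axis, by role) in 3 panels for granulosa-like, endothelial-like and macrophage-like cells; bars are 95% counting intervals. Black points reached 20 CPM in a library and grey points did not; the medians over the 37 genes are 1.08, 1.32 and 0.789.

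Macrophage-like cells showed the opposite direction in member levels. Their share with a high score was 11.1% (8.96 to 13.6) of 746 control cells and 10.5% (7.47 to 14.1) of 354 PS-MP cells, a difference inside the counting error. Of 24 members that reached 20 CPM, 14 were called lower and 0 higher, where 11% of 7063 genes were called lower and 13.6% higher, and of the 20 with 20 CPM in both libraries 12 were lower. Mcm7 was 36.4 and 21.7 CPM (0.597, 0.438 to 0.803), Pola1 34.2 and 20.6 CPM, Lig1, which seals nicks between fragments, 74.5 and 49.3 CPM, and Rrm1 55.9 and 36.9 CPM. Pcna (370 and 335 CPM), Ung (19.3 and 20.6 CPM) and E2f1 (29.0 and 29.5 CPM) were not called. The mitosis score differed more than the replication score: 13.3% (10.9 to 15.9) of control cells and 7.63% (5.09 to 10.9) of PS-MP cells were high. Of 35 mitosis genes 30 were called lower, among them Nusap1 at 43.7 and 14.8 CPM. Of the 25 with 20 CPM in both libraries 20 were lower. These counts rest on 37 PS-MP cells with a high replication score and 27 with a high mitosis score. Granulosa markers stood at a median of 16.2% and 16.7% of their granulosa-like level in macrophage-like cells, and the 12 luteal markers summed to 868 CPM in the control and 1912 CPM in PS-MP, with 0 of them at 0. Their part in the difference was not tested.

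In theca-like cells the median ratio over the 37 members was 0.819, and in stromal fibroblast-like cells 0.973. In theca-like cells 4 of 14 members were called lower and 0 higher, where 9.8% of 7145 genes were called lower and 5.85% higher, and in stromal fibroblast-like cells 4 of 25 were lower and 0 higher, against 6.01% and 4.94% of 7141 genes. Rrm1 was on both lists, at 50.1 and 37.03 CPM in theca-like and 109 and 86.9 CPM in stromal cells. In theca-like cells 22 of 26 mitosis genes were called lower, and 12 of the 16 with 20 CPM in both libraries. Of the members with 20 CPM in both libraries, 3 of 11 were lower in theca-like and 3 of 22 in stromal cells. The stromal share with a high score was 11.4% and 11.5%, while member UMIs were 1.58 and 1.53 per 1000, so no order is read. Ccne1 was the one member above its granulosa-like level in both, at 25.9 CPM in control and 21.4 CPM in PS-MP stromal cells and 12.3 and 9.51 CPM in theca-like cells.

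The luteal-like clusters were low for nearly every member. In the Edn2-led cluster all 37 genes were below the PS-MP granulosa-like level with intervals under it, at a median of 18.4% and a range of 6.37% (E2f7) to 58.5% (Slbp). The share of all genes with such an interval was not counted, so nothing is read from that count. Mcm5 stood at 10.5 CPM against 136 CPM and Cdc6 at 1.46 against 20.8 CPM, while Pcna stayed at 154 CPM against 459 CPM. Granulosa markers were at a median of 13.8% of their granulosa-like level there, and their part was not tested. In the Akr1c18-led cluster the median was 22.5% in the control and 15.5% in PS-MP. Among the G1 regulators, the inhibitor Cdkn1a was 320 CPM in the Edn2-led cluster against 21.5 CPM in PS-MP granulosa-like cells, cyclin D2, Ccnd2, was 127 against 848 CPM, and Myc 308 against 147 CPM. Cdkn2b was 72.0 and 89.6 CPM in the Akr1c18-led cluster, and 0.218 and 0.204 CPM in granulosa-like cells.

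Oocyte-like cells had scores as high as granulosa-like cells with a different mix of members. The share with a high score was 25.3% (16.0 to 36.7) of 75 control cells and 26.3% (17.8 to 36.3) of 95 PS-MP cells, and 84.0% and 76.8% were high for the mitosis score. Orc1, the largest subunit of the origin recognition complex, was 41.0 and 40.2 CPM against 7.61 and 8.77 CPM in granulosa-like cells, which is 539% and 458%. Esco2 was 83.5 and 78.2 CPM (306% and 269%), Gins2 55.0 and 48.7 CPM (303% and 243%) and Ung 153 and 151 CPM (250% and 210%). In contrast E2f7 was 3.38 and 3.21 CPM (12.5% and 12.1%) and Rrm2 25.1 and 22.5 CPM (34.5% and 28.3%). Esco2 and E2f7, both with low ratios in the ordering of granulosa-like cells above, therefore stood at opposite ends here. Granulosa markers were at a median of 16.3% and 24.8% of their granulosa-like level in these cells, and their part was not tested.

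**Figure D5:**
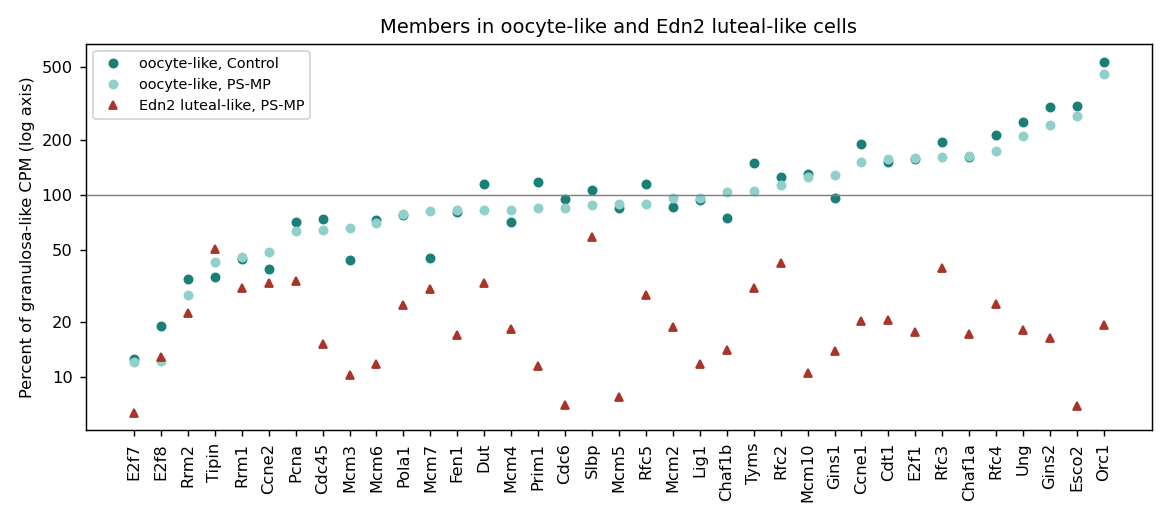
CPM of each of the 37 genes (x axis) as a percent of the granulosa-like CPM of the same library (log y axis), in oocyte-like cells of both libraries and in the Edn2-led luteal-like cells of PS-MP. Oocyte-like points run from about the level of E2f7 (12.1%) to Orc1 (539%), and all luteal-like points lie under 100%.

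Lymphocyte-like cells (T, NK or innate lymphoid) had 37.3% (27.9 to 47.4) of 102 control cells and 24.5% (13.3 to 38.9) of 49 PS-MP cells with a high score. Granulosa markers stood at a median of 54.3% and 61.5% of their granulosa-like level in them, more than in any other group. The 37 members together stood at 127% and 79.9% of their granulosa-like level. The part of granulosa RNA in these scores was not tested, and no level of their own is read for these cells. Dendritic-like cells had 8 of 131 in the control and 0 of 64 in PS-MP, which allows a share of up to 4.69% (3 cells of 64).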

How the data were processed

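The 2 libraries of mouse ovary were used, 1 per group. The deposited matrices hold whole-number UMI counts per gene and cell, made by the authors; the submitters' processing notes name GRCm39 and Seurat, and no source used here gives the aligner, counting settings or filters. The files held 15373 control and 15056 PS-MP cells, with 160257194 and 145474989 UMIs. Cells with at least 500 genes and at most 25% mitochondrial counts were kept, and doublets called by Scrublet (2.12% and 2.42%) were left out. Counts scaled to 10000 per cell and logged were clustered with scanpy 1.11.5 (2000 variable genes without the 4 cell cycle lists, 30 components, 15 neighbours, Leiden resolution 0.5) and named from markers. A name needed 3 markers at 20 CPM and a mean marker level, relative to the highest cluster, of at least 0.15, and the class with the highest mean was taken. Granulosa-like clusters 5 and 8 scored 0.259 and 0.276, against 0.833 for cluster 0. The next class of cluster 5 was theca, at 0.171. Each cell was thinned to 3500 UMIs for scores (limit 10); the shallowest kept cells had 3814 and 3575. CPM came from unthinned sums. Shares have Clopper-Pearson intervals, levels exact Poisson and ratios exact conditional binomial intervals, all at 95% and for counting error only; PCR duplicates are removed only as far as UMIs do so. The intervals and calls were tried on simulated counts that held counting error only. Spread between cells, mice or libraries was not simulated, so this checks the calculation and not the intervals for these data. Classes with 200 cells in each library were compared. Named genes were all members, the genes in the top 30 of both libraries by correlation with the score, and members at the ends of each ordering; G1, mitosis and marker genes named were chosen after their values were seen. Members and lists were chosen with earlier results of these data known. Promoters are RefSeq, GRCm38.p6; no member coordinate from another build was used. A planned search of the proteins for Pcna-binding motifs was not run.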

Additional observations from a re-analysis of the deposited data

How the results depend on the processing

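The direction of the granulosa-like difference between the libraries was the same under every alternative tried except the one that counted the Edn2-led cluster as granulosa-like, chosen after seeing the data, where the PS-MP share was 27.0% and the difference -0.16 points. With a limit of 7 UMIs the shares were 36.4% and 43.6% (difference 7.26 points), and with 15 they were 16.6% and 19.6% (2.99 points). Unthinned cells gave 51.3% and 56.6%, the score without Pcna 23.2% and 27.2%, the other replication genes in place of the members 22.7% and 25.2% (2.53 points), at least 6 different members 36.2% and 43.1% (6.82 points), clusters weighted alike 23.1% and 25.96% (2.89 points) and at most 15% mitochondrial counts 28.3% and 33.5%. Leaving out 1 granulosa-like cluster at a time, also chosen after seeing the data, gave 24.7% and 29.9% (cluster 0), 23.1% and 27.7% (cluster 1), 30.8% and 36.7% (cluster 3), 23.7% and 28.7% (cluster 4), 30.4% and 35.8% (cluster 5), and 29.1% and 34.03% (cluster 8). High mitosis scores in granulosa-like cells were 33.4% and 39.9% at a limit of 7, and 23.4% and 27.8% (4.36 points) at 15, where the median ratio of members between mitosis-high and mitosis-low PS-MP cells was 1.87.

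Small differences changed sign. The stromal one was -0.23 points at a limit of 7, -1.69 unthinned, -0.60 with the other replication genes and -0.027 at resolution 0.3. The macrophage-like one was 0.088 at a limit of 7, 0.068 at resolution 0.8 and 0.32 at 15% mitochondrial counts, and the theca-like one 0.18 at resolution 0.3, 0.66 with doublets kept and 0.29 at 15% mitochondrial counts. The cause of these changes was not tested.

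Counts of called members moved with the limits. In granulosa-like cells the number higher was 4 from thinned counts, 0 with clusters weighted alike, with a 50 CPM minimum and with a 1.5-fold limit, 2 when all variable genes were clustered, 3 with doublets kept, 2 at 15% mitochondrial counts and 2 without cluster 1. Endothelial-like cells had 10 higher at 50 CPM and 8 at 1.5-fold, with 1 lower at 10 CPM, and macrophage-like cells had 4 lower at 50 CPM and 4 at 1.5-fold. Stromal cells had 3 higher and 2 lower from thinned counts, 1 higher at 10 CPM, 1 lower at 50 CPM, 0 at 1.5-fold and 2 lower with doublets kept. Theca-like cells had 11 lower at 10 CPM, 1 at 50 CPM, 0 at 1.5-fold, 7 with all variable genes, 1 with doublets kept and 1 at 15% mitochondrial counts, where 1 was higher. Depth limits the values of genes with few UMIs, whose counting intervals are wide. No paired analysis was possible because each group has 1 library.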
